A study of Saccharomyces cerevisiae with 6 samples.

Results

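The seripauperins and the DAN, TIR and TIP mannoproteins form a family of small secreted and cell wall proteins of budding yeast (Saccharomyces cerevisiae). The 31 family members were taken by their systematic gene names: the 24 seripauperin genes PAU1 to PAU24, and the 7 related genes DAN1, DAN4, TIR1, TIR2, TIR3, TIR4 and TIP1. Of these, 30 were found among 6282 measured genes and all 30 could be tested, while PAU9 was not analysed here. All 6 arrays measured 27 of them. PAU14 and DAN1 each lacked 1 wild-type value and PAU23 lacked 1 hap1 deletion value.

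The study asked how the transcription factor Hap1 shapes the response to oxygen. The arrays were 2-colour arrays on which RNA of a hypoxic culture was compared with RNA of an aerobic culture of the same strain. On 3 arrays both cultures carried a deletion of HAP1, and on the other 3 both were wild type. Per the series description, replicates came from separate cultures on different days. The labels used here do not state the strain background, the medium or the length and depth of hypoxia. All values below are log2 ratios of hypoxic over aerobic RNA, so a ratio of 1 is a doubling in hypoxia. Such a ratio cannot tell a higher hypoxic level from a lower aerobic level, nor more expressing cells from more RNA per cell. Genes could not be compared in absolute level, because spot intensities were not used here.

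As background, the family shares a secreted protein domain, and the DAN, TIR and TIP proteins add long serine- and threonine-rich stretches and a lipid anchor that ties them to the wall. Yeast exchanges its aerobic wall mannoproteins for this set when oxygen runs out. In air the genes are held down by repressors that act with the Tup1-Cyc8 corepressor, including Mot3 and Rox1, and without oxygen the sterol regulator Upc2 activates DAN and TIR genes. Hap1 binds heme, whose synthesis needs oxygen. Most PAU genes lie near chromosome ends and are close copies of each other, so spots of different PAU genes may share signal and the value of any single PAU gene is uncertain.

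The PAU genes held many of the highest ratios in hap1 deletion cells. Their median on replicates 1 to 3 was 4.20, 4.47 and 4.91 in hap1 deletion cells, against 2.92, 3.05 and 2.10 in wild-type cells. The lowest hap1 deletion array thus stood above the highest wild-type array. The DAN/TIR/TIP median was 2.72, 2.31 and 3.34 in hap1 deletion cells, against 1.82, 3.62 and 3.18 in wild-type cells, so here the strains overlapped (wild-type replicate 2 lacks DAN1). The median over all measured genes stayed between -0.07 and -0.02 on the 6 arrays. Among the 30 highest ratios of an array, PAU genes numbered 15, 15 and 18 in hap1 deletion cells, against 8, 9 and 4 in wild-type cells. DAN/TIR/TIP genes numbered 1, 1 and 1 there in hap1 deletion cells, against 0, 3 and 5 in wild-type cells. Among the 10 highest ratios, PAU genes numbered 3, 8 and 9 in hap1 deletion cells, against 1, 4 and 0 in wild-type cells. DAN/TIR/TIP genes among these 10 numbered 0, 1 and 1 in hap1 deletion cells, against 0, 1 and 3 in wild-type cells.

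**Figure D1:**
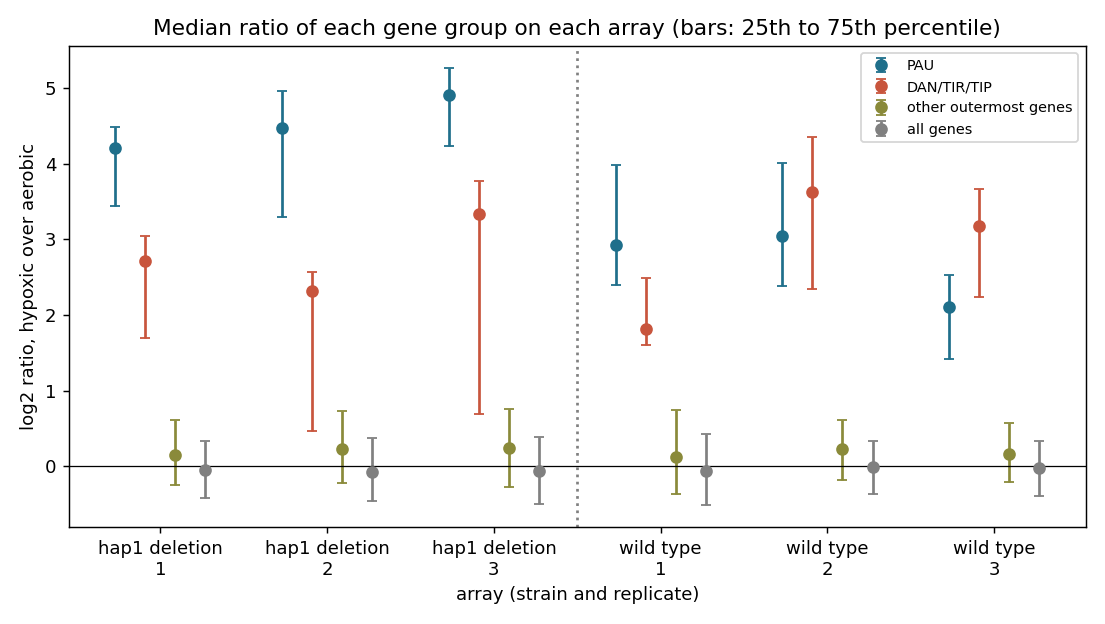
Median log2 ratio of hypoxic over aerobic RNA (vertical axis) on each of the 6 arrays (horizontal axis) for PAU genes, DAN/TIR/TIP genes, other genes near chromosome ends and all genes, with bars from the 25th to the 75th percentile of the genes. The PAU median is above the DAN/TIR/TIP median on the 3 hap1 deletion arrays and on wild-type replicate 1, and below it on wild-type replicates 2 and 3.

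In hap1 deletion cells 21 of the 23 PAU genes tested rose in hypoxia, and none fell (limma, Benjamini-Hochberg adjusted p under 0.05). Of all 6208 genes tested, 2.5% were called higher and 1.82% lower in this strain. The PAU median of strain means was 4.57, against -0.06 for all genes. In wild-type cells 19 of the 23 rose and none fell, where 1.92% of all genes were called higher and 2.32% lower. The wild-type median was 2.72, against -0.04 for all genes. On wild-type replicates 1 to 3, 100%, 95.7% and 100% of the measured PAU ratios were above 0. Over all genes these shares were 46.4%, 48.7% and 48.0%. All 19 also rose in hap1 deletion cells, where PAU6 and PAU15 were called in addition, while PAU7 and PAU23 were called in neither strain. Leaving out wild-type replicate 1 reduced the wild-type count to 2, leaving out wild-type replicate 2 to 0, and leaving out hap1 deletion replicate 2 to 11, the strains sharing 1 residual spread per gene. Over all genes these 3 fits called 10, 0 and 27 rises in wild-type cells. With the replicate number as a block, or with each strain fitted alone, the wild-type count was 0 for PAU genes and over all genes. The 19 PAU genes called above then had limma adjusted p from 0.0614 to 0.107 with the block, and from 0.0556 to 0.0800 fitted alone. No gene's wild-type rise could therefore be called under all 15 fits run. The rises of 15 PAU genes in hap1 deletion cells were called under all 15. In hap1 deletion cells the count stayed between 15 and 20 whichever of the 6 arrays was left out, and over all genes between 28 and 148.

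PAU6 (YNR076W) had the largest ratio of the family. It read 10.24, 7.05 and 5.25 in hap1 deletion cells, against 3.67, 3.98 and 2.18 in wild-type cells. All hap1 deletion values lay above all wild-type values, but they differed widely among themselves. The value of 10.24 was the highest of any gene on hap1 deletion replicate 1, the array with the most missing values (678). Across all genes that array correlated with hap1 deletion replicates 2 and 3 at r of 0.502 and 0.329. The hap1 deletion mean of 7.51 ± 2.53 (SD, n = 3) is a 183-fold rise (limma adjusted p = 0.00775), whereas the wild-type mean of 3.28 ± 0.96 did not pass (adjusted p = 0.0771). Leaving out 1 array moved the hap1 deletion mean between 6.15 and 8.65. The hap1 deletion call was lost without hap1 deletion replicate 2 (adjusted p = 0.0758), and the wild-type mean passed without hap1 deletion replicate 1 (adjusted p = 0.0342).

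PAU16, PAU13, PAU11 and PAU12 followed in mean ratio over both strains, with large values in both strains. PAU16 (YKL224C) read 4.49, 5.68 and 5.02 in hap1 deletion cells, against 4.58, 6.51 and 2.20 in wild-type cells. PAU11 (YGL261C) read 4.56, 4.97 and 5.34 in hap1 deletion cells, against 4.14, 5.97 and 2.70 in wild-type cells. For both genes the strains overlapped, and wild-type replicate 2 gave the highest of the 6 values and replicate 3 the lowest. PAU12 (YGR294W) read 4.35, 4.93 and 5.30 in hap1 deletion cells, against 4.47, 5.69 and 2.88 in wild-type cells. PAU13 (YHL046C) read 4.32, 4.94 and 5.59 in hap1 deletion cells, against 4.90, 5.14 and 2.87 in wild-type cells. These 4 genes rose in both strains, by 29.0-fold (PAU12) to 33.5-fold (PAU16) in hap1 deletion cells and by 19.3-fold (PAU11) to 21.6-fold (PAU16) in wild-type cells. The hap1 deletion call of PAU16 was lost without any 1 hap1 deletion array (limma adjusted p up to 0.135), that of PAU11 without replicate 2 or 3 and that of PAU12 without replicate 2, while that of PAU13 held.

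PAU4 (YLR461W) was the most even PAU gene of the deletion strain. It read 5.22, 5.27 and 5.29 in hap1 deletion cells (5.26 ± 0.04, SD, n = 3), against 4.44, 4.43 and 2.52 in wild-type cells (3.79 ± 1.11, SD, n = 3). PAU5, PAU2, PAU20, PAU17, PAU19 and PAU10 had hap1 deletion means from 4.57 to 4.95 and wild-type means from 2.48 to 3.55. All 6 rose in both strains. PAU1, PAU24, PAU8, PAU21 and PAU22 also rose in both, with hap1 deletion means from 3.73 to 4.04 and wild-type means from 1.87 to 2.67. PAU21 and PAU22 are of equal annotated length. Their means were 3.91 and 3.73 in hap1 deletion cells, against 1.95 and 1.87 in wild-type cells. PAU8, of another length, had similar means of 3.94 in hap1 deletion cells and 2.05 in wild-type cells.

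At the lower end, PAU18 and PAU3 rose in both strains. PAU18 (YLL064C) read 3.42, 2.95 and 3.07 in hap1 deletion cells, against 2.50, 2.40 and 1.02 in wild-type cells, with no overlap. It averaged 3.15 ± 0.24 in hap1 deletion cells and 1.98 ± 0.83 in wild-type cells (SD, n = 3 each). PAU3 (YCR104W) read 2.74, 2.47 and 3.78 in hap1 deletion cells, against 1.86, 1.32 and 1.45 in wild-type cells, again with no overlap. It averaged 2.99 ± 0.69 in hap1 deletion cells and 1.55 ± 0.28 in wild-type cells (SD, n = 3 each). PAU15 read 2.03, 1.90 and 4.52 in hap1 deletion cells, against 1.35, 2.39 and 1.47 in wild-type cells. Its hap1 deletion mean of 2.82 passed in the fit of all 6 arrays, but not with any 1 array left out (limma adjusted p = 0.0526 to 0.128), and the mean without hap1 deletion replicate 3 was 1.96. Its wild-type mean of 1.74 did not pass (adjusted p = 0.103), but did without hap1 deletion replicate 3 (adjusted p = 0.0332).

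PAU7 (YAR020C), the shortest PAU gene measured, stood apart on a single array. It read 2.59, 2.87 and 3.20 in hap1 deletion cells, against 1.57, -2.76 and 0.98 in wild-type cells. The value of wild-type replicate 2 was the lowest PAU ratio on any array, and neither strain passed (limma adjusted p = 0.0759 in hap1 deletion cells and 0.958 in wild-type cells). With each strain's own spread PAU7 did pass in hap1 deletion cells (adjusted p = 0.0105), and without wild-type replicate 2 it passed there as well (adjusted p = 0.00328). Without that array its wild-type mean was 1.27.

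PAU23 (YLR037C), also named DAN2, read -0.15 and 3.04 on hap1 deletion replicates 2 and 3, against 1.72, 3.04 and 0.50 in wild-type cells. Its values overlapped between the strains and passed in neither. PAU14 (YIL176C) read 3.75, 4.47 and 1.75 in hap1 deletion cells, against 3.55 and 3.89 on wild-type replicates 1 and 2. It rose in both strains and its groups overlapped. With 1 array left out, its hap1 deletion call was lost without replicate 1 or 2 of either strain (limma adjusted p up to 0.155), and its wild-type call was lost without any 1 array other than hap1 deletion replicate 3 (adjusted p up to 0.199). PAU23 and PAU14 were the only PAU genes whose mean was lower in hap1 deletion cells.

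**Figure D2:**
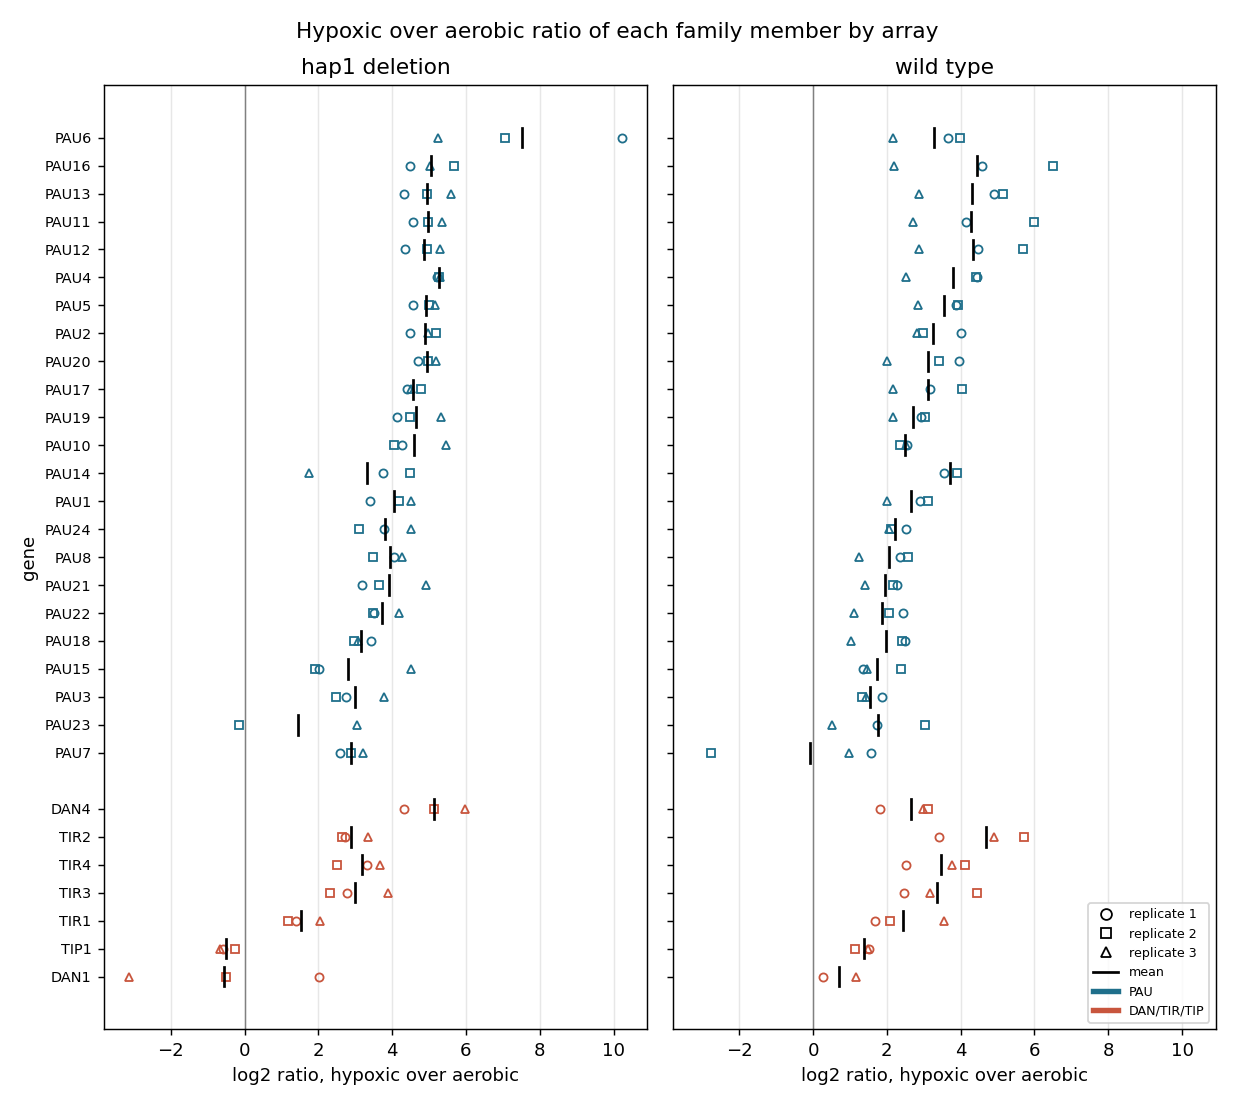
Log2 ratio of hypoxic over aerobic RNA (horizontal axis) of each measured family member (rows) on each array, hap1 deletion on the left and wild type on the right, with marker shapes for replicates 1 to 3 and a bar at the mean. Most PAU genes lie further right in hap1 deletion cells, and most of their wild-type triangles (replicate 3) are the leftmost point. The TIR means lie further right in wild-type cells, but the points of TIR1, TIR3 and TIR4 overlap between the strains.

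Of the 7 DAN/TIR/TIP genes, 4 rose in hap1 deletion cells (DAN4, TIR2, TIR3 and TIR4) and 6 rose in wild-type cells (the same 4 with TIR1 and TIP1), where 2.5% of all genes were called higher in hap1 deletion cells and 1.92% in wild-type cells. None fell in either strain. The median of strain means was 2.90 in hap1 deletion cells and 2.64 in wild-type cells. The hap1 deletion count was 2, 2 and 1 without hap1 deletion replicates 1, 2 and 3. The wild-type count was 2, 0 and 1 without wild-type replicates 1, 2 and 3, and 0 with the replicate block or with each strain fitted alone. Over all genes the wild-type count was 10, 0 and 21 without these arrays, and 0 with the block or fitted alone. DAN4 in hap1 deletion cells was the only call of this group that held under all 15 fits run, which no wild-type rise of any gene could.

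The 4 TIR proteins are wall mannoproteins of anaerobic growth. Some TIR genes are also induced by cold, and some are needed for growth without oxygen. TIR2 (YOR010C) read 2.72, 2.63 and 3.34 in hap1 deletion cells, against 3.42, 5.71 and 4.90 in wild-type cells, with no overlap. It rose 7.44-fold in hap1 deletion cells (limma adjusted p = 0.0163) and 25.5-fold in wild-type cells (adjusted p = 0.0110). TIR4 (YOR009W) read 3.32, 2.52 and 3.67 in hap1 deletion cells, against 2.51, 4.12 and 3.76 in wild-type cells. TIR3 (YIL011W) read 2.78, 2.31 and 3.88 in hap1 deletion cells, against 2.45, 4.43 and 3.18 in wild-type cells. For both TIR3 and TIR4 the strains overlapped, and both rose in each strain. In hap1 deletion cells the calls of TIR2 and TIR3 were lost without any 1 hap1 deletion array, and that of TIR4 without replicate 3. TIR1 (YER011W) read 1.39, 1.19 and 2.04 in hap1 deletion cells, where it did not pass (adjusted p = 0.0653), against 1.68, 2.09 and 3.56 in wild-type cells, where it rose (adjusted p = 0.0264).

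DAN1 and DAN4 encode wall mannoproteins named for delayed anaerobic induction and are direct neighbours on chromosome X in the RefSeq gene order, yet they read differently. DAN4 (YJR151C) read 4.32, 5.14 and 5.96 in hap1 deletion cells, against 1.82, 3.12 and 2.99 in wild-type cells, with no overlap between the strains. It rose 35.3-fold in hap1 deletion cells (limma adjusted p = 0.00142) and 6.25-fold in wild-type cells (adjusted p = 0.0230). DAN1 (YJR150C) read 2.01, -0.52 and -3.13 in hap1 deletion cells, against 0.27 and 1.15 on wild-type replicates 1 and 3. Its hap1 deletion replicates spanned both signs, and it passed in neither strain (adjusted p = 0.737 in hap1 deletion cells and 0.729 in wild-type cells). TIR4 and TIR2 are likewise direct neighbours on chromosome XV, with AUS1, a sterol importer of anaerobic cells, next to TIR2.

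TIP1 (YBR067C), a major wall mannoprotein also induced by cold and heat, was the one member whose strains took opposite signs on every array. It read -0.59, -0.27 and -0.66 in hap1 deletion cells, against 1.52, 1.14 and 1.48 in wild-type cells. The wild-type mean of 1.38 ± 0.21 (SD, n = 3) was a 2.60-fold rise (limma adjusted p = 0.0191), and the hap1 deletion mean of -0.50 ± 0.21 (SD, n = 3) did not pass (adjusted p = 0.142).

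The strains were then compared directly, as hap1 deletion minus wild type. No PAU gene passed the test of this difference (0 of 23, limma adjusted p under 0.05), where 0.306% of all genes were called with the higher ratio in hap1 deletion cells. The difference was above 0 for 21 of 23 PAU genes, with a median of 1.45, against -0.03 over all genes tested. An unadjusted p under 0.05 was reached by 16 of the 23, all with the higher ratio in hap1 deletion cells, against 4.27% of all genes in that direction and 3.7% in the other. Of the 21 PAU genes with all 6 values, 16 had their 3 hap1 deletion values above their 3 wild-type values, against 6.49% of all genes with 6 values, and none lay below. The 5 that overlapped were PAU11, PAU12, PAU13, PAU15 and PAU16. The members share the same 6 arrays and their spots may share signal, so these counts cannot be read as independent.

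By size, the PAU differences ran from -0.40 (PAU14) to 4.24 (PAU6). The difference of PAU6 had a 95% interval of 1.39 to 7.08 (limma adjusted p = 0.404). PAU10 had the smallest p of the PAU genes. It read 4.27, 4.06 and 5.45 in hap1 deletion cells, against 2.55, 2.36 and 2.53 in wild-type cells, a difference of 2.11 with an SE of 0.40 and an interval of 1.18 to 3.05 (adjusted p = 0.155). The interval of PAU16 ran from -1.74 to 3.0, so for this gene the data allow a difference in either direction.

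**Figure D3:**
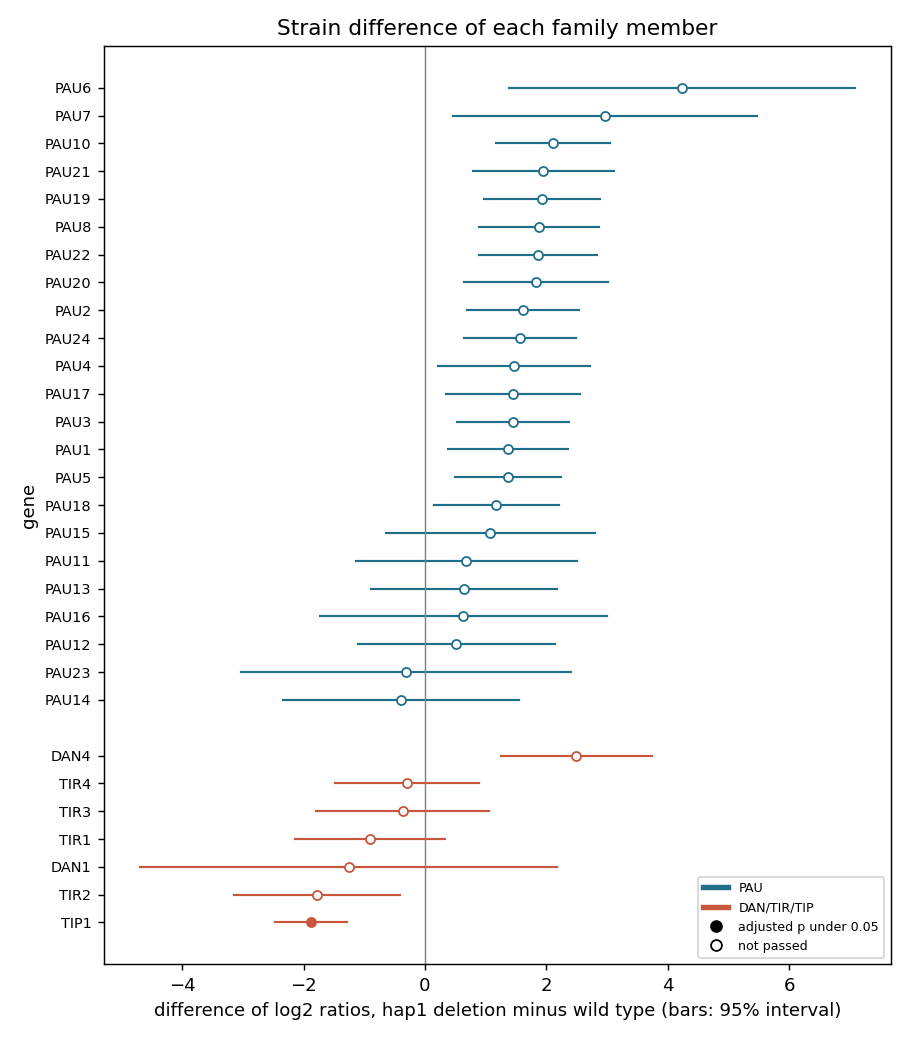
Difference of mean log2 ratios, hap1 deletion minus wild type (horizontal axis), with its 95% interval for each measured family member (rows), filled where the adjusted p is under 0.05. Of the PAU genes 21 of 23 lie right of 0, 6 of the 7 DAN/TIR/TIP genes lie left of 0, and only TIP1 is filled.

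In the DAN/TIR/TIP group 6 of 7 differences were below 0, with a median of -0.90, against -0.03 over all genes tested. Those of DAN1, TIR3 and TIR4 changed sign in some fits with 1 array left out, and TIP1 alone passed. Its difference was -1.88 with an SE of 0.25 and a 95% interval of -2.47 to -1.29 (limma adjusted p = 0.0450), where 0.0483% of all genes were called with the lower ratio in hap1 deletion cells. It was 1 of 3 such genes among the 6208 tested. The call was lost whichever of the 6 arrays was left out (adjusted p = 0.109 to 0.248), while the difference stayed between -2.0 and -1.81. TIR2 differed by -1.78 (interval -3.14 to -0.42, adjusted p = 0.470) and TIR1 by -0.90 (interval -2.14 to 0.33). TIR3 differed by -0.37 and TIR4 by -0.30, with intervals from -1.79 to 1.06 and from -1.48 to 0.89. Of the 6 genes with all values, TIR2 and TIP1 had the 3 hap1 deletion values below the 3 wild-type values, against 8.72% of all genes. DAN4 went the other way, with all 3 hap1 deletion values above the wild-type values (interval of the difference 1.26 to 3.74, adjusted p = 0.213).

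**Figure D4:**
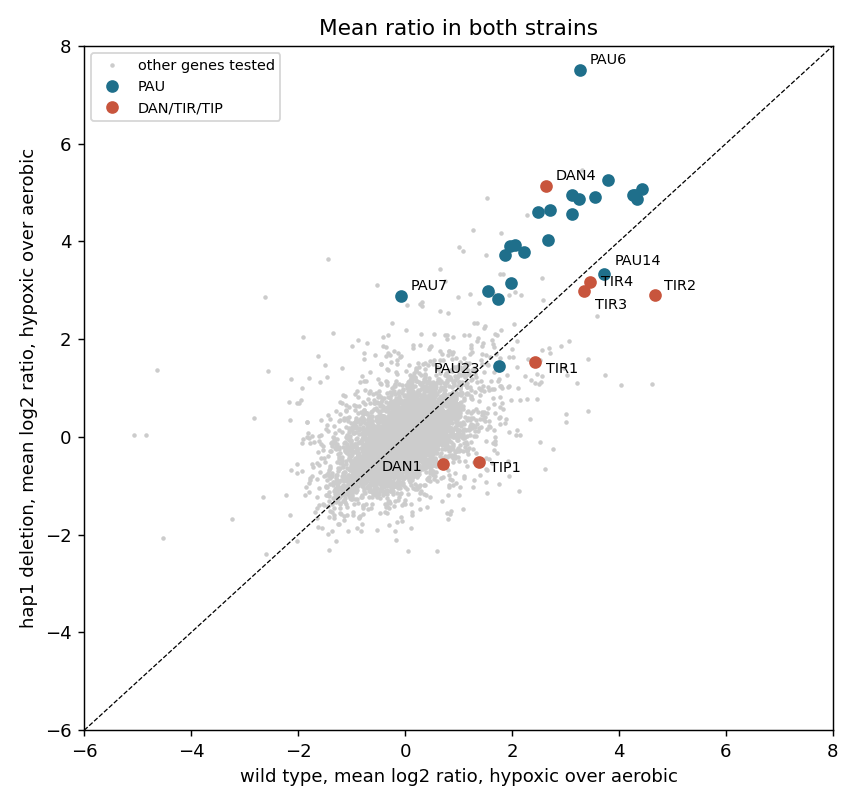
Mean log2 ratio of hypoxic over aerobic RNA in hap1 deletion cells (vertical axis) against wild-type cells (horizontal axis) for every gene tested, with a dashed line of equal ratios. The PAU genes and DAN4 lie mostly above the line and the TIR genes and TIP1 below it.

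Set against each other within an array, the PAU median exceeded the DAN/TIR/TIP median by 1.49, 2.16 and 1.57 in hap1 deletion cells. In wild-type cells the PAU median was 1.11 higher on replicate 1 and differed by -0.58 and -1.07 on replicates 2 and 3. DAN1 has no value on wild-type replicate 2, so that median is over 6 genes and the others over 7. Over the 21 PAU and 6 DAN/TIR/TIP genes with all values, which leaves out DAN1 everywhere, the differences were 1.52, 2.06 and 1.45 in hap1 deletion cells, against 0.79, -0.58 and -1.21 in wild-type cells. Against TIR1 to TIR4 alone, a choice made after seeing the data, these values were 1.46, 2.06 and 1.40 in hap1 deletion cells, against 0.44, -1.23 and -1.56 in wild-type cells. The order of the groups was thus the same on the 3 hap1 deletion arrays and changed between wild-type arrays.

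The wild-type arrays ordered the groups differently. Of 21 PAU genes with all values, 17 had their lowest wild-type value on replicate 3, whereas 5 of 6 DAN/TIR/TIP genes had theirs on replicate 1. In hap1 deletion cells both groups were mostly highest on replicate 3 (16 of 21 PAU genes and 5 of 6 DAN/TIR/TIP genes). The SD between arrays had a median of 0.57 for PAU genes in hap1 deletion cells, against 0.71 in wild-type cells, and was larger in wild type for 14 of 23. The share over all genes was not counted, and for PAU14 and PAU23 the SD of 1 strain rests on 2 values. Wild-type replicate 1 correlated across all genes with the other arrays of its strain at r of 0.454 and 0.412, and with hap1 deletion replicate 3 at r of 0.538. The part of array quality in these orders was not tested.

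Position along the chromosome was examined in the gene order of the RefSeq assembly R64. Among the 10 outermost protein-coding genes of a chromosome end lay 18 of the 23 measured PAU genes. Their median was 4.32 in hap1 deletion cells, against 2.69 in wild-type cells. The 5 PAU genes further inside are PAU2, PAU5, PAU7, PAU17 and PAU23, with medians of 4.57 in hap1 deletion cells and 3.12 in wild-type cells. Of these, PAU2, PAU5 and PAU17 rose in both strains. PAU23, the most internal, is number 100 from its end. The 274 other tested genes among the outermost 10 had medians of 0.20 in hap1 deletion cells and 0.14 in wild-type cells, and 5.84% of them were called higher in hap1 deletion cells and 4.38% in wild-type cells.

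The COS genes, another multicopy family near chromosome ends, served as a comparison. Of 11 measured COS genes 3 rose in hap1 deletion cells and 2 in wild-type cells, against 2.5% and 1.92% of all genes. The median was 1.06 in hap1 deletion cells and 1.03 in wild-type cells. An unadjusted p under 0.05 (limma, either direction) was reached by 10 in hap1 deletion cells and 8 in wild-type cells. The share of all genes with such a p within a strain was not counted. Both counts include COS2, which had negative means, -0.59 in hap1 deletion cells and -0.50 in wild-type cells. COS6, next to PAU12, rose in both strains, by 1.41 in hap1 deletion cells and 1.29 in wild-type cells. COS9 also rose in both, and COS10 rose in hap1 deletion cells. No COS gene passed limma's test of the difference (1 had an unadjusted p under 0.05).

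None of the 10 regulator genes tested passed in either strain or between strains (limma adjusted p under 0.05). An unadjusted p under 0.05 was reached by 3 in hap1 deletion cells, 3 in wild-type cells and 0 for the difference. The share of all genes with such a p was counted only for the difference (4.27% higher and 3.7% lower in hap1 deletion cells). For the counts within a strain, of this and the other gene lists, it was not counted. Those counts therefore have no background beside them. UPC2, the sterol-sensing activator, read -0.09, -0.26 and -0.47 in hap1 deletion cells, against -2.09, 0.62 and 0.42 in wild-type cells, so wild-type replicate 1 stood apart. ECM22, its paralogue, averaged -0.24 (n = 2) in hap1 deletion cells and 0.59 in wild-type cells. MOT3, a repressor of DAN and TIR genes in air, averaged -0.16 in hap1 deletion cells and -0.18 in wild-type cells, and ROX1, the hypoxic gene repressor, averaged -0.19 in hap1 deletion cells and -0.92 in wild-type cells. TUP1 and CYC8, the corepressor genes, averaged -0.65 and -0.03 in hap1 deletion cells, against -0.48 and -0.05 in wild-type cells. SUT1, a regulator of sterol uptake, averaged -0.72 in hap1 deletion cells and -0.35 in wild-type cells. The deacetylase genes RPD3 and HDA1 averaged 0.33 and -0.17 in hap1 deletion cells, against 0.04 and -0.26 in wild-type cells. The HAP1 spot read 0.47 to 0.72 on hap1 deletion arrays, against 0.50 to 1.10 on wild-type arrays. Both cultures of an array share the genotype, so this ratio does not check the deletion.

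Of the wall proteins of aerobic or general growth, 9 of 11 were measured and none passed limma's test in either strain (3 had an unadjusted p under 0.05 in hap1 deletion cells and 3 in wild-type cells). CWP1, which the anaerobic mannoproteins replace, read -0.49, -1.27 and -0.85 in hap1 deletion cells, against 0.20, 2.07 and 1.59 in wild-type cells. Like TIP1 it kept 1 sign in each strain, but its difference of -2.16 did not pass. The sterol importer AUS1, beside TIR2, read -2.07, 1.03 and 0.39 in hap1 deletion cells, against -2.01, 2.21 and 3.38 in wild-type cells. Its replicate 1 was negative in both strains, where TIR2 was positive. PDR11, the other importer, averaged 1.73 in hap1 deletion cells and 2.72 in wild-type cells, and neither importer passed limma's test (1 had an unadjusted p under 0.05 in each strain).

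Among markers of mating type, 1 of 5 a-specific genes fell in hap1 deletion cells, where 1.82% of all genes were called lower. It was MFA2, which encodes a-factor pheromone (-1.20 ± 0.36, SD, n = 3). None of the 5 passed in wild-type cells and none of 4 alpha-specific genes passed in either strain, with 1 of each list at an unadjusted p under 0.05 in wild-type cells and 1 alpha-specific gene in hap1 deletion cells. The a-specific median was -0.90 in hap1 deletion cells and 0.39 in wild-type cells, and the alpha-specific median was 0.10 in hap1 deletion cells and 0.28 in wild-type cells. No marker passed limma's test of the strain difference. An unadjusted p under 0.05 was reached there by 3 a-specific and 0 alpha-specific genes. Over all genes 4.27% had such a p with the higher ratio in hap1 deletion cells and 3.7% with the lower. The part of the markers in the family's values was not tested.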

How the data were processed

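The authors deposited a log10 ratio of aerobic over hypoxic RNA for each gene and array, a direction taken from the sample titles. Spots were quantified with GenePix 5.0, per the labels. The sources used here do not state background correction, filters, normalization or the array's genome build. The log base was read from the values: 242 of 36476 were exact ratios of whole numbers with denominators up to 30 (relative tolerance 7e-08) in base 10, against 6 in base 2 and 5 in base e. The design had assumed log2. Every value was therefore rescaled to log2 with its sign reversed, giving hypoxic over aerobic. Hypoxic RNA was in Cy3 on replicate 2 of each strain and in Cy5 otherwise. These arrays correlated with the others of their strain at r from 0.454 to 0.575, so ratios were read as already turned one way. Array medians of the deposited values lay between 0.00540 and 0.0218.

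Genes with at least 2 values per strain (6208 of 6282) entered limma 3.58.1 under R 4.3.3 (lmFit and eBayes, two-sided tests, 1 mean per strain, shared spread, prior 2.97 degrees of freedom), with Benjamini-Hochberg adjustment over all of them. Only 3 arrays per strain limit the precision. Values missing per array numbered 15 to 678. Symbols and gene order came from the RefSeq table of R64, which matched 5707 rows. All members are reported. Those given array by array are the DAN/TIR/TIP genes, the PAU genes with the 5 largest and 5 smallest mean ratios, those called in neither strain and those with missing values; others were chosen after their values were seen (PAU4, PAU10). The members and lists were chosen with earlier results of these data known. Alternatives covered scaling, filters, dye, replicate number, spread and each array left out.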

Additional observations from a re-analysis of the deposited data

Results flagged for a closer look

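TIP1 differed between the strains, by -1.88 on the log2 scale (hap1 deletion minus wild type, limma adjusted p = 0.0450), with all 3 hap1 deletion ratios below 0 and all 3 wild-type ratios above 0. The call did not hold with any 1 array left out.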

How the results depend on the processing

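In hap1 deletion cells the rises of 15 PAU genes and of DAN4 were called under all 15 fits run. No wild-type rise of any gene could be, since the block and the fits of each strain alone called 0 over all genes. Counts of PAU rises in wild type (19) became 0 with the replicate block (limma adjusted p from 0.0614) and with each strain fitted alone (from 0.0556). Those of DAN/TIR/TIP genes in wild type (6) became 0, 0 and, with a dye term, 3, and in hap1 deletion cells (4) became 2 with the block. The TIP1 difference was not called (0) with scaled arrays, the block or a dye term. With 1 array left out, PAU rises ranged from 15 to 20 in hap1 deletion cells and from 0 to 20 in wild type, DAN/TIR/TIP rises from 1 to 5 and from 0 to 6, and DAN/TIR/TIP differences were 0.

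Over all genes, rises in hap1 deletion cells (155) numbered 58 with the block, 90 with a dye term, 73 fitted alone and 28 to 148 with 1 array left out. Rises in wild type (119) numbered 180 with scaled arrays, 0 with the block, 28 with a dye term, 0 fitted alone and 0 to 144 with 1 array left out. Differences (22) numbered 3 with scaled arrays, 0 with the block, 7 with a dye term and 2 to 16 with 1 array left out. The lone arrays left were assumed to vary like the others. Deviations of same-numbered arrays correlated at -0.0331, 0.0585 and 0.134, and not every array correlated best with its own number, so the numbers were not taken as pairs.

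The PAU median in hap1 deletion cells was 4.16 to 4.65 with 1 of its arrays left out. As means over members, DAN/TIR/TIP genes averaged 2.10 in hap1 deletion cells, 2.13 below PAU genes. The PAU minus DAN/TIR/TIP median in wild type (0.07) was -0.015 with scaled arrays, -0.28 with all 6 values required, -0.69 against TIR1 to TIR4 alone and -0.44 to 0.53 with 1 array left out, so it has no settled sign. The cause of these changes was not tested.

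Values that did not pass changed sign with 1 array left out. The wild-type mean of PAU7 ranged from -0.89 to 1.27, and the hap1 deletion means of PAU23 from -0.15 to 3.04 and of DAN1 from -1.82 to 0.74. Differences ranged from -0.10 to 1.53 (PAU11), -0.22 to 1.19 (PAU12), -0.066 to 1.07 (PAU13), -0.97 to 0.39 (PAU14), -0.48 to 1.67 (PAU16), -1.90 to 1.28 (PAU23), -2.53 to 0.035 (DAN1), -0.82 to 0.17 (TIR3) and -0.77 to 0.032 (TIR4). With the block PAU14 differed by 0.39.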

Other observations

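Genes directly beside the family members were also examined. Of 40 tested neighbours of PAU genes 3 rose in hap1 deletion cells (COS6, YRF1-7 and MAL32) and 3 in wild-type cells (YLR460C, COS6 and SSA2), 7.5% in each strain, against 2.5% of all genes in hap1 deletion cells and 1.92% in wild-type cells. Of the 274 other tested genes among the outermost 10, which include some of these neighbours, 5.84% rose in hap1 deletion cells and 4.38% in wild-type cells. The neighbours' share was not tested, and their median was 0.28 in both strains. MAL32, a maltase gene beside PAU24, read 2.58, 2.13 and 1.58 in hap1 deletion cells (limma adjusted p = 0.00968), against 1.05, 0.96 and 0.33 in wild-type cells, where it did not pass. Of 8 tested neighbours of DAN/TIR/TIP genes 1 rose, in hap1 deletion cells. It was NRG2, a glucose repressor gene beside TIP1, which read 1.56, 2.22 and 1.79 in hap1 deletion cells (adjusted p = 0.00968), against 0.90, 0.11 and 0.46 in wild-type cells. All its hap1 deletion values lay above its wild-type values, whereas those of TIP1 lay below. Neither difference passed for MAL32 or NRG2 (adjusted p = 0.373 and 0.273).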
